A study of Homo sapiens with 40 samples.

Results

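The comparison set 7 LNCaP clones labelled resistant to MDV3100 against 3 control lines labelled sensitive to it, on the 10 arrays of the first replicate set that received only the solvent. These are 10 of the 40 arrays of the series, chosen by their labels as those with 0.1% DMSO and a title ending in rep1, with no measured value in the choice. LNCaP is an established human prostate cancer line that depends on androgen, and MDV3100, also called enzalutamide, is an antiandrogen that blocks the androgen receptor. Control 1 has the title D+E-, control 2 the title D+R- and control 3 the title M+R-, and the labels leave these titles unexplained. Resistant cultures are named clone 1, 9, 10, 14, 15, 19 and 24, and each is 1 clone of LNCaP. All 10 cultures grew for 3 days after seeding and then received 0.1% DMSO for 24 h, in RPMI-1640 with serum. How the clones were derived, and whether they were kept in the drug before seeding, are not given in the sources used here. The comparison therefore asks which genes differed between resistant and sensitive lines before the drug was added.

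Androgen enters prostate cells, binds its receptor, and the receptor then switches on genes such as KLK3 through DNA elements near them. Enzalutamide competes with androgen for the receptor, and cells that go on dividing in its presence may keep, replace or bypass the receptor's output. In LNCaP the ETS factor gene ETV1 is known to have been moved next to regulatory DNA that is active in prostate cells.

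Values are MAS5 signals, a linear brightness per probe set that the deposited table scales to a common level, and differences are means of log2(signal + 16), clones minus control lines. The added 16 keeps dim probe sets from dominating, and it makes the difference understate the change of dim genes. A gene was called when limma's test gave a Benjamini-Hochberg adjusted p under 0.05 over all 11853 genes tested. Each line has 1 array here, so the line is the replicate. Nothing in the labels says whether clones came from separate selections, so the p-values measure the spread between these 10 cultures. The median signal per array lay between 10.9 and 12.5, and no pair among the 45 pairs of arrays held identical values. The ratio of 3' to 5' actin signal, which rises with RNA breakdown and with 3' amplification, averaged 3.79 ± 0.53 over the control lines (SD, n = 3) and 4.06 ± 0.46 over the clones (SD, n = 7).

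The prostate identity of the cells was visible on every array. Of the 10 measured markers of LNCaP luminal cells, 9 lay above a signal of 12.1 on all 10 arrays. Their summed signal was 15650 to 17300 in control lines and 10060 to 16180 in clones. Of 9 measured immune markers, 8 lay below 12.1 on all 10 arrays, and the summed signal of the list was 19.8 to 27.6 in control lines and 13.6 to 38.2 in clones. The endothelial list held 6 of 8 markers below 12.1 on all 10 arrays, and PECAM1 and CDH5, which define that cell type, reached at most 9.8. Its summed signal was 78.8 to 155.5 in control lines and 27.8 to 48 in clones. VWF gave most of it in control lines, at 49.8 to 126.2, and was at 11.1 to 26.9 in clones. The fibroblast list held 5 of 10 markers below 12.1 on all 10 arrays, with DCN, LUM and FAP at 4.2 or less. Its summed signal was 386.3 to 548.4 in control lines and 413.6 to 1018 in clones, and ACTA2 alone gave up to 829.5 of it. For 10 genes that mark other prostate lines the summed signal was 72.8 to 115.4 in control lines and 122.9 to 476.5 in clones, so that the groups did not overlap. VIM and UCHL1 made up most of it, while KRT5, AXL and CAV1 stayed at 4.9 or less on every array. What these markers contribute to the results below was not tested.

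The second replicate set stood apart from its labels, and this touches each result that sets it beside the first. Each of 11853 genes was centred on its mean over the DMSO arrays of both sets together, so a shift of a whole set lowers correlations between sets. By this measure 0 of its 10 arrays were most like the first array of the same label, and 8 correlated negatively with it. Clones 9, 10, 14, 15, 19 and 24 had r of -0.65 to -0.30 with their own label, and each was nearest to control 1 or control 2, at -0.21 to -0.08. The second array of control 1 was about as near to control 3 (r = 0.35) as to its own label (r = 0.31). The second array of control 2 was most like the first array of clone 1 (r = 0.63, against -0.17 with its own label). That of control 3 was most like clone 14 (r = 0.54, against -0.22), and that of clone 1 was most like clone 19 (r = 0.66, against 0.04). Which set carries labels that differ from its cultures, if either does, was not tested. These correlations run across genes, which are not independent replicates.

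Of the 11853 genes tested, 725 were called, which is 6.12% of them. In the clones 432 genes (3.64%) were higher and 293 (2.47%) were lower, and 3092 genes had an unadjusted p under 0.05. The median difference over all genes was 0.03, with 6516 positive and 5337 negative. The split between directions moved with the scaling: with each array centred on its own median, 598 genes were higher and 255 lower, which is 70.1% higher against 59.6%. The number of calls depended on single cultures. Leaving out control 1, 2 or 3 left between 101 and 119 calls, and leaving out clone 9, 10, 14 or 15 left 409, 318, 311 or 239. Without clone 1 or clone 19 the number rose to 1453 or 1269, and without both to 2276. All 725 called genes kept their direction in each of the 10 fits that left out 1 culture, and 76 of them (10.5%) were called in every one. Genes whose groups did not overlap numbered 1431 (12.1% of the genes tested), of which 652 were among the 725.

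Some calls given below also rested on the processing. Without the filter on low values 19775 genes were tested and 524 were called, and ADAMTS3, TPBG, LGALS3BP, HGD, LXN, PHLDB2, TRPM8, FN1, RB1, CDKN2A, GADD45A, IGF1R, RNF43, PSMB9, PFKP, MMP7 and UCHL1 were not called. With a pseudocount of 4 the calls of PHLDB2, FN1, RB1, IGF1R, RNF43 and PFKP were lost. Other settings ended the calls of RB1 (median centring, line as a random block), CDKN2A (intensity trend, line as a random block), IGF1R (mean of all probe sets), RNF43 (quantile normalization, median centring) and PSMB9 (quantile normalization). Settings also added calls. Of 72 genes examined singly and not called, 47 were called when arrays were weighted by quality, and 14 under at least 1 other setting of the pseudocount, filter, scaling, probe set choice, variance model or line as a random block. Those 14 included KLK3, ACP3, NR3C2, SLC2A1, NDUFA1 and COX6C.

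**Figure D1:**
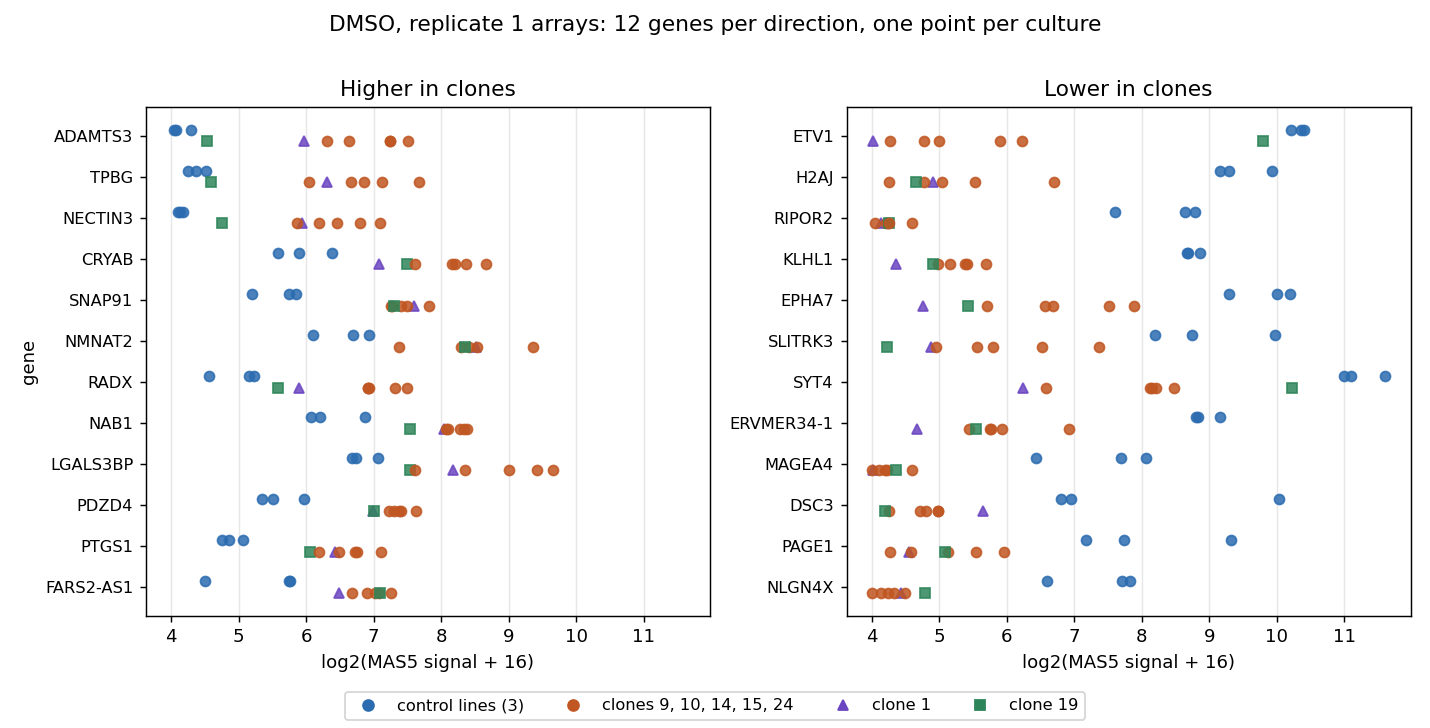
Signal of the 12 genes most raised and the 12 most lowered in clones among called genes whose groups do not overlap; each point is 1 culture, the x axis is log2(MAS5 signal + 16). Clone 19 lies nearest to the control lines for ETV1 (871.2 against 1163 to 1344) and SYT4 (1182 against 2034 to 3088), while RIPOR2 and KLHL1 keep all 7 clones far below.

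The largest differences were losses of signal in the clones. ETV1, an ETS family transcription factor, had signals of 1293, 1163 and 1344 in control lines 1, 2 and 3. Among clones it ranged from 0.3 in clone 1 to 871.2 in clone 19, with a median of 15.9. Clone 19 thus sat close to the control lines and the other 6 clones at 58.8 or less, and the groups did not overlap. The difference was -4.61 ± 1.00 (SE; adjusted p = 0.0289), and the call was lost without any 1 control line and without clone 10, 14 or 15, with adjusted p up to 0.103. The ETS list held 10 measured genes, of which ETV1 was lower and the other 9 were not called. Its median of 0.10 lay near that of all genes, of which 2.47% were called lower.

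RIPOR2, which restrains the small GTPase RhoA, was at 382.9, 177.8 and 424.4 in control lines and at 0.5 to 8.3 in clones, with a median of 3. All 7 clones were below the filter signal of 12.1, and no clone came near a control line. The difference of -4.09 ± 0.22 had the smallest adjusted p of the 24 genes shown, 8.6e-06. H2AJ, a histone H2A variant, was at 609.9, 961.1 and 557.1 in control lines against 3.1 to 88.4 in clones, a difference of -4.34 ± 0.42 (adjusted p = 0.000454). The probe set of H2AJ is of a type that can pick up related genes. KLHL1, a kelch protein of neurons, was at 450.5, 390.5 and 393.7 in control lines against 4.5 to 35.6 in clones (-3.61 ± 0.23, adjusted p = 3.1e-05). ERVMER34-1, the envelope gene of an endogenous retrovirus, was at 439.3, 556.1 and 432.2 against 9.4 to 105.8 (-3.21 ± 0.35, adjusted p = 0.0011). These 4 genes kept their call in every fit that left out 1 culture.

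Several genes of nerve cell contacts and vesicle release were among the genes lower in clones. SYT4, a synaptotagmin of secretory vesicles, was at 2034, 3088 and 2180 in control lines and at 59.5 to 1182 in clones, with a median of 268.8. Clone 19 was again the clone nearest to the control lines. The difference was -3.23 ± 0.67 (adjusted p = 0.0247), a call that was lost without any 1 control line or clone 15 (adjusted p up to 0.101). NLGN4X, a neuroligin of synapses, was at 212, 81.3 and 194 in control lines and at 0.1 to 11.6 in clones (-3.04 ± 0.24, adjusted p = 0.000172). SLITRK3, a synaptic adhesion protein, was at 277, 988.2 and 414.9 against 2.7 to 149 (-3.36 ± 0.60, adjusted p = 0.0156), and its call was lost without control 2 or control 3 (adjusted p up to 0.0788). Other neuronal genes ran the other way: SNAP91, a clathrin assembly protein of synapses, was at 42, 20.8 and 37.8 in control lines and at 136.3 to 210.1 in clones (1.85 ± 0.16, adjusted p = 0.000192). NMNAT2, which makes NAD in axons, was at 106.2, 52.6 and 87.5 against 150.9 to 643.3 (1.83 ± 0.32, adjusted p = 0.0146), with the call lost without control 2 or control 3. On the neuroendocrine and neuronal list 1 of 11 measured members, SYT4, was called, while 6.12% of all genes were called. By limma 2 of the 11 had an unadjusted p under 0.05 (18.2%, against 26.1% of all genes). The list's median was -0.25 against 0.03 for all genes, or -0.06 without control 2.

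Some receptor and adhesion genes were lower in clones, while others, such as IGF1R and NECTIN3, were higher. EPHA7, a receptor for ephrin-A ligands, was at 1011, 608.7 and 1151 in control lines and at 11.2 to 221.4 in clones, with a median of 79.1 (-3.46 ± 0.59, adjusted p = 0.0124). Its call was lost without control 1 or control 3 (adjusted p up to 0.0633). EFNB2, an ephrin-B ligand, was at 1050, 1019 and 1178 against 147.9 to 632.1 (-1.70 ± 0.37, adjusted p = 0.0292), and lost its call without any 1 control line or clone 15. The family of ephrins and their receptors, chosen after its values were seen, held 17 measured members. EPHA7 and EFNB2 were lower and the other 15 were not called, with 8 positive and 9 negative differences in all. The share called lower over all genes was 2.47%. DSC3, a desmosomal cadherin, was at 95.9, 1027 and 107.8 in control lines, so that control 2 was far above the other control lines, and at 2.4 to 34.2 in clones (-3.13 ± 0.59, adjusted p = 0.0181). ITGA6, the integrin alpha 6 chain, was at 656.4, 611 and 651.3 against 222.4 to 453.9 (-1.01 ± 0.21, adjusted p = 0.0234, lost without any 1 control line). JAG1, a Notch ligand, was at 1262, 1501 and 928.7 against 345.5 to 654.5 (-1.25 ± 0.20, adjusted p = 0.00823), and was the 1 called gene of 12 on the Notch list. Its call was lost without control 2, at an adjusted p of 0.052.

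Of 10 measured genes of the cancer-testis antigen group, a family chosen after its values were seen, 6 were lower, 0 were higher and 4 were not called. Over all genes 2.47% were called lower. Many cancer-testis genes, often on the X chromosome, are normally silent outside the testis. They are known to be switched on in tumours when the CG dinucleotides of their promoters lose methylation. MAGEA4 was at 191, 250.9 and 70.3 in control lines and at 0.1 to 8.3 in clones (-3.18 ± 0.28, adjusted p = 0.000193). PAGE1 was at 198.4, 621.3 and 128.9 against 3.4 to 46.3 (-3.06 ± 0.45, adjusted p = 0.00552). All 7 clones lay below all control lines for both genes. The others lower were MAGEA10 (-2.51), MAGEA1 (-2.09), SSX1 (-1.68) and SSX3 (-1.46), the last pair with their highest signals in control 2, 262.1 and 133. MAGEA4, PAGE1, MAGEA10 and MAGEA1 kept the call in every fit without 1 culture, while SSX1 and SSX3 lost it in 7 of 10. Those were the fits without control 3 or without clone 9, 10, 14, 15 or 24, with SSX1 also lost without control 1 and SSX3 without control 2. Among the genes not called, PAGE4 had a positive difference, with 8.4, 11.5 and 4.9 in control lines and 9.5 to 52.8 in clones (0.93 ± 0.26, adjusted p = 0.0566). MAGEA6 was at 2104, 2042 and 2157 in control lines and 2005 to 2247 in clones (0.04), and MAGEA12 and GAGE1 differed by -0.29 and -0.19. Members of this family share long stretches of sequence. The probe sets of MAGEA1, MAGEA6, MAGEA12, SSX1 and SSX3 are of the type that can pick up relatives. Their values are therefore uncertain as measures of a single gene. On the DMSO arrays of the second set the 6 genes lower in clones had differences of 0.18 to 2.87. The family median was -1.57 in the first set and 1.07 in the second.

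The promoters of PAGE1 and SSX1 are shown with each CG dinucleotide in capitals. The 250 bases before the start are given 5′ to 3′ from RefSeq on GRCh38.p14, for PAGE1 at chrX:49695985-49696234 on the minus strand and for SSX1 at chrX:48255142-48255391 on the plus strand.
PAGE1: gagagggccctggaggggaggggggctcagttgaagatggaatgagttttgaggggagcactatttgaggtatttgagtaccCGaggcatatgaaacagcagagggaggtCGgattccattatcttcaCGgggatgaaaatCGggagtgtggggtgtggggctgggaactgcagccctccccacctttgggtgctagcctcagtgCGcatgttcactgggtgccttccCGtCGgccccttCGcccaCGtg
SSX1: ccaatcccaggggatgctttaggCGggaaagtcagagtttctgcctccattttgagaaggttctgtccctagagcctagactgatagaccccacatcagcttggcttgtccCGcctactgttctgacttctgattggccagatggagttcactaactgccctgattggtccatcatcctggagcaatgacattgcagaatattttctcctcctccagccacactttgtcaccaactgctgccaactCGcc
PAGE1 held 9 CG and SSX1 held 3, against a median of 11 over 35116 promoters. No methylation was measured here.

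Some imprinted genes, which are read from 1 parental copy, were lower as well, in a family chosen after its values were seen. PEG3, a paternally expressed zinc finger gene, was at 2242, 2820 and 1959 in control lines and at 740.9 to 1231 in clones (-1.19 ± 0.15, adjusted p = 0.00238). Its antisense partner PEG3-AS1 was at 1475, 2116 and 1201 against 248.2 to 522 (-1.92 ± 0.23, adjusted p = 0.00192). DIO3, which inactivates thyroid hormone, was at 151.2, 61.6 and 152.9 against 12.4 to 32.1 (-1.74 ± 0.25, adjusted p = 0.00497). Clones and control lines did not overlap for these 3 genes, and each kept its call without any 1 culture. The other 4 measured members of this chosen family, MEST, GRB10, NDN and CDKN1C, were not called. Thus 3 of 7 members were called lower, against 2.47% of all genes, and PEG3 and PEG3-AS1 are neighbours. On the DMSO arrays of the second set the differences of PEG3, PEG3-AS1 and DIO3 were 1.03, 1.68 and 1.67.

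Among the 12 genes most raised in clones the differences were 1.59 to 2.35, against -4.61 to -3.04 for the 12 most lowered. ADAMTS3, a protease that processes procollagen, was at 3.6, 0.9 and 0.5 in control lines and at 7.1 to 165.3 in clones, with a median of 83 and clone 19 lowest (2.35 ± 0.52, adjusted p = 0.0315). TPBG, an oncofetal membrane glycoprotein, was at 4.7, 3.1 and 6.9 against 8.1 to 187.1 (2.09 ± 0.50, adjusted p = 0.0382). NECTIN3, a cell adhesion protein, was at 1.5, 1.2 and 2.1 against 10.9 to 120.5 (2.02 ± 0.39, adjusted p = 0.0194). In all 3 genes clone 19 was the lowest clone and sat just above the control lines. Their calls were lost without any 1 control line. ADAMTS3 also lost its call without clone 10, 14 or 15 (adjusted p up to 0.111), and TPBG without clone 9, 10, 14 or 15 (adjusted p up to 0.129).

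Of the 12 genes most raised in clones, NAB1, PTGS1, SNAP91, PDZD4 and FARS2-AS1 kept their call without any 1 culture. CRYAB, a small heat shock protein, was at 67.2, 31.8 and 43.6 in control lines and at 119.6 to 388.8 in clones (1.99 ± 0.31, adjusted p = 0.00754), and the call was lost only without control 2 (adjusted p = 0.0514). NAB1, a corepressor of EGR factors, was at 101.5, 57.5 and 51.3 against 169.6 to 319.4 (1.73 ± 0.20, adjusted p = 0.00157). PTGS1, the cyclooxygenase that starts prostaglandin synthesis in most tissues, was at 17.5, 13.1 and 11 against 50.3 to 122.4 (1.64 ± 0.20, adjusted p = 0.00192). PDZD4, a PDZ domain protein, was higher by 1.66 ± 0.16 and FARS2-AS1, an antisense RNA, by 1.59 ± 0.26. RADX, which binds single-stranded DNA at replication forks, was higher by 1.74 ± 0.38 (adjusted p = 0.0292), and LGALS3BP, a secreted galectin ligand, by 1.71 ± 0.43 (adjusted p = 0.0443). Both lost the call without any 1 control line, RADX also without clone 14 or 15 and LGALS3BP without clone 9, 10, 14 or 15.

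HGD, LXN and PHLDB2 were followed because earlier results of these data had pointed to them. HGD, an enzyme of tyrosine breakdown, was at 122.3, 61.4 and 94.2 in control lines and at 134.6 to 383.8 in clones (1.03 ± 0.26, adjusted p = 0.0442). All 7 clones were above all control lines. LXN, a carboxypeptidase inhibitor, was at 7.1, 12.3 and 5.7 against 10.3 to 116.5 (1.86 ± 0.42, adjusted p = 0.0323), and PHLDB2, a protein of the cell cortex, at 16.1, 7.8 and 12.3 against 12.9 to 80.5 (1.29 ± 0.34, adjusted p = 0.0475). Clone 19 lay among the control lines for both LXN and PHLDB2, at 10.3 and 12.9. All 3 calls were lost without any 1 control line, or without clone 10, 14 or 15, those of LXN and PHLDB2 also without clone 9 and that of PHLDB2 without clone 24, with adjusted p up to 0.167 for HGD, 0.116 for LXN and 0.16 for PHLDB2.

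Of 32 measured genes that androgen induces, 2 were called, both lower, and the clones differed among themselves. Over all genes 6.12% were called, with 2.47% called lower. KLK3, which encodes prostate-specific antigen, was at 3600, 3659 and 3551 in control lines 1, 2 and 3. In clones it was at 995.5, 1210, 577.4, 500.7 and 995.8 in clones 1, 9, 10, 14 and 15, at 3793 in clone 19 and at 1185 in clone 24. The other 6 clones were far below the control lines, while clone 19 was above them, so the groups overlapped. The difference was -1.74 ± 0.48 and was not called (adjusted p = 0.0544), while without clone 19 it was -2.04 and was called. It was called in 7 of 23 alternative settings, also with a pseudocount of 32, a filter at the 75th percentile, the mean of all probe sets, an intensity trend and array weights. ACP3, prostatic acid phosphatase, had the same layout, with 633.1, 486.8 and 560.8 in control lines, 104.8 to 183.1 in 6 clones and 802.3 in clone 19 (-1.64 ± 0.50, adjusted p = 0.0723, called without clone 19 at -1.99, and also with array weights or line as a random block). TRPM8, an ion channel gene of prostate epithelium, was at 471.9, 1291 and 575.8 in control lines against 38.9 to 451.6 in clones, with clone 19 highest (-2.31 ± 0.53, adjusted p = 0.0348). Its call was lost without any 1 control line or clone 10, 14 or 15 (adjusted p up to 0.141). The probe set of KLK3 is of the type that can pick up relatives, and other probe sets of KLK3 differed by -1.73 and -2.16.

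The promoter of KLK3 shows the kind of element through which the receptor acts. Its 250 bases before the start lie at chr19:50854665-50854914 on the plus strand of GRCh38.p14, from RefSeq, and the capitals mark a match to AGAACA, a known hexamer of the androgen response element, searched on both strands.
KLK3: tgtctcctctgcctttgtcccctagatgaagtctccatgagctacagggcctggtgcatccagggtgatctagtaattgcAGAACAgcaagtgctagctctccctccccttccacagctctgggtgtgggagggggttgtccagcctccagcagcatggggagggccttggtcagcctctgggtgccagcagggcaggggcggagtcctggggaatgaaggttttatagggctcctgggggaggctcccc
The match begins 170 bases before the start. Such a match was present in 12.4% of 35116 promoters of the same length, and binding was not measured here.

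Among other androgen-induced genes, TMPRSS2, FKBP5 and KLK2 overlapped between the groups. Every clone lay above every control line for RHOU and GNMT, and below for PDLIM5, ABCC4 and ST6GALNAC1. Groups did not overlap for 12.1% of all genes. TMPRSS2, a serine protease gene, was at 2332, 2607 and 2786 in control lines and at 2020 to 3499 in clones (0.09 ± 0.14, adjusted p = 0.731). FKBP5, a chaperone partner of steroid receptors, was at 1838, 1694 and 1788 against 1639 to 2189 (0.12 ± 0.09, adjusted p = 0.452). KLK2, a kallikrein next to KLK3, was at 1665, 3264 and 2005 against 770.8 to 2091 (-0.69 ± 0.36, adjusted p = 0.252), with clones 9, 10 and 14 below 1000 and the other clones among the control lines. A p above the threshold does not show that these genes were equal. Of 32 measured genes on the androgen-induced list, TRPM8 and ST6GALNAC1 were lower, 0 were higher and 30 were not called, and 12 had an unadjusted p under 0.05 (37.5%, against 26.1% of all genes). The list's median was -0.13 against 0.03 for all genes, and on the MDV3100 arrays of the same set it was 0.25. On the androgen-repressed list of 15 genes OPRK1, an opioid receptor gene, was lower (-1.43 ± 0.31). IGF1R, the receptor for insulin-like growth factors, was higher (1.05 ± 0.28), and 13 were not called. Over all genes 6.12% were called. OPRK1 and IGF1R lost their call without any 1 control line, OPRK1 also without clone 15 and IGF1R without clone 10, 14, 15 or 24. ST6GALNAC1 lost its call without any 1 control line or clone 10, 14 or 15. KLK15, a kallikrein found after its values were seen, was at 95.1, 80.8 and 78.2 against 42.4 to 67.8 (-0.53 ± 0.11, adjusted p = 0.0229, also lost without any 1 control line).

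**Figure D2:**
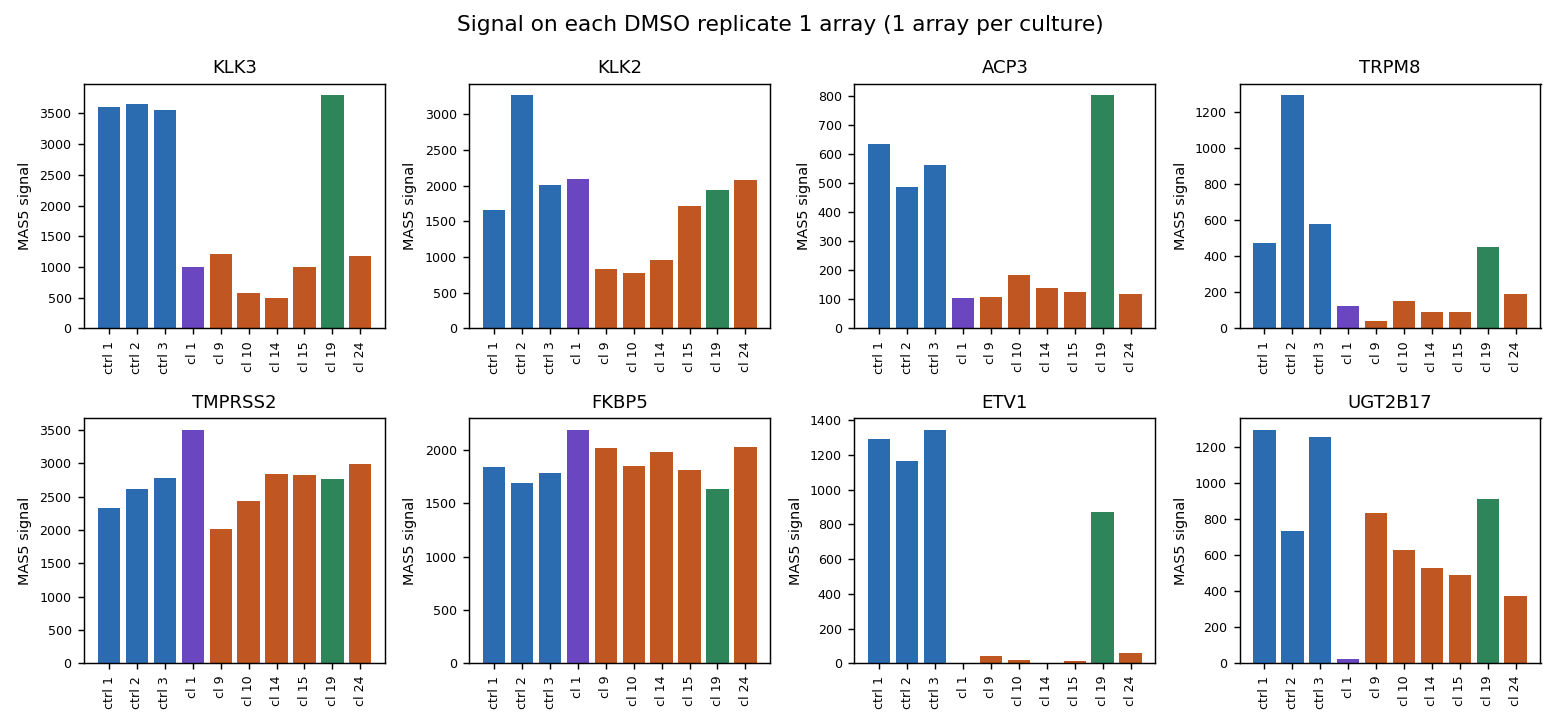
MAS5 signal of 8 genes on each of the 10 arrays, 1 bar per culture, with each panel on its own axis from 0. Clone 19 stands with the control lines for KLK3, ACP3 and ETV1, clone 1 alone is low for UGT2B17 at 23.3, and clones and control lines overlap for TMPRSS2 and FKBP5.

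Among enzymes that clear androgens clone 1 stood apart, and among those that convert them AKR1C3 was higher in clones. UGT2B15, UGT2B17 and UGT2B28 attach glucuronic acid to androgens and so remove them. UGT2B17 was at 1295, 731.6 and 1254 in control lines, at 372.1 to 909.9 in 6 clones and at 23.3 in clone 1. UGT2B15 was at 1577, 1240 and 1654 in control lines and at 74.2 in clone 1, with the other clones at 611.2 to 1417. UGT2B28 was at 843.9, 614.4 and 702.9 in control lines, 18.2 in clone 1 and 101.2 in clone 19. The groups overlapped for all 3, and none was called, with differences of -1.37, -1.14 and -1.52 and adjusted p of 0.305, 0.322 and 0.253. The closely related sequences of these genes can share probes, so the single values are uncertain. AKR1C3, a reductase that makes testosterone from a precursor, was at 6.4, 4.6 and 7.2 in control lines and at 20.4 to 40.9 in clones (1.09 ± 0.13, adjusted p = 0.00151), and kept its call without any 1 culture. Its relatives AKR1C1 and AKR1C2 were higher in every clone than in every control line but were not called (0.89 and 1.07, adjusted p = 0.0751 and 0.0545). The probe sets of AKR1C1 and AKR1C2 are of the type that can pick up relatives. On the steroid metabolism list AKR1C3 was the 1 called gene of 13, while 6.12% of all genes were called. Groups did not overlap for 12.1% of all genes.

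Around steroid receptors, 1 of 13 glucocorticoid-induced genes and 0 of 13 receptor and cofactor genes were called, against 6.12% of all genes. TSC22D3, a glucocorticoid-induced gene that dampens inflammation, was at 354.8, 233.3 and 318.2 in control lines and at 468.7 to 736.8 in clones (0.91 ± 0.16, adjusted p = 0.0156). It was the 1 called gene of 13 on the glucocorticoid-induced list, and the call was lost without control 2 or control 3 (adjusted p up to 0.0752). NR3C2, the mineralocorticoid receptor, was at 155.3, 71.9 and 139.2 against 132.2 to 571, with clone 19 lowest (1.24 ± 0.36, adjusted p = 0.0605). Of the 13 measured genes of the androgen receptor and its cofactors, limma called 0, with 6 at an unadjusted p under 0.05 (46.2%, against 26.1% of all genes). The largest differences after NR3C2 were 0.46 for UXT and -0.40 for NCOA2.

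On the luminal epithelial and prostate surface antigen lists 0 genes were called, and on the mesenchymal list 2 were lower. The 1 measured basal gene, ITGA6, was lower as given above. The share called over all genes was 6.12%, and the share called lower 2.47%. FOLH1, which encodes prostate-specific membrane antigen, was at 1150, 1147 and 1098 in control lines and at 841.4 to 1349 in clones (0.05 ± 0.13, adjusted p = 0.848). HOXB13, a homeobox factor of prostate cells, was at 688.1, 762.4 and 690.5 against 521.8 to 641.1, with all 7 clones below the control lines (-0.27 ± 0.09, adjusted p = 0.0896). With the mean of all its probe sets the HOXB13 difference was 0.053. Limma called 0 of 14 luminal epithelial genes and 0 of 8 prostate surface antigens. Of these, 4 and 0 had an unadjusted p under 0.05, against 26.1% of all genes. Among 7 mesenchymal genes, TWIST1, a factor of mesenchymal cells, was lower, with 618.2, 249.3 and 702.7 in control lines against 41.9 to 129.5 in clones (-2.25 ± 0.34, adjusted p = 0.00637). FN1, fibronectin, was lower, at a difference of -0.996 ± 0.25 (adjusted p = 0.044, lost without any 1 control line or clone 9, 10, 14 or 15), and VIM, vimentin, was not called, at 66.1, 51.1 and 42.5 against 60.5 to 292.5 with clone 14 highest. The probe set of FN1 is of the type that can pick up relatives. UCHL1, a ubiquitin hydrolase of nerve cells, was at 18.4, 7.3 and 6.2 in control lines and at 24 to 122.6 in clones. Its difference was 1.52 ± 0.34 (limma adjusted p = 0.0334, lost without any 1 control line or clone 9 or 15).

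Of 7 measured protocadherins of the beta cluster, a family chosen after its values were seen, 3 were higher in clones and 4 were not called, against 3.64% of all genes called higher. These genes lie in a row on chromosome 5, encode cell surface adhesion proteins, and are each switched on from a promoter of their own. PCDHB5 was at 175.9, 106.4 and 97.5 in control lines and at 258.9 to 334.8 in clones (1.18 ± 0.15, adjusted p = 0.00238), and kept its call without any 1 culture. PCDHB3 was at 41.6, 47.9 and 26 against 53.2 to 81.6 (0.67 ± 0.14, adjusted p = 0.0235), and PCDHB2 at 144.2, 100.8 and 133.3 against 180.7 to 266 (0.67 ± 0.12, adjusted p = 0.0176). The clones lay above the control lines for these 3 genes, and the other 4 members had positive differences of 0.21 to 0.91 (adjusted p = 0.0603 to 0.239). PCDHB3 lost its call without control 1, control 3 or clone 15 and PCDHB2 without control 2 or control 3. The probe set of PCDHB3 is of the type that can pick up relatives. The median of the 7 members was 0.67, and on the DMSO arrays of the second set it was -0.33. On the MDV3100 arrays of the same set the differences of PCDHB5, PCDHB3 and PCDHB2 were 0.40, 0.56 and -0.09.

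The promoters of the 3 called protocadherin genes share a stretch of letters, GGTGGCGCT, shown in capitals within the 250 bases before the start on the plus strand of GRCh38.p14 (RefSeq). PCDHB2 is at chr5:141094365-141094614, PCDHB3 at chr5:141100223-141100472 and PCDHB5 at chr5:141134956-141135205.
PCDHB2: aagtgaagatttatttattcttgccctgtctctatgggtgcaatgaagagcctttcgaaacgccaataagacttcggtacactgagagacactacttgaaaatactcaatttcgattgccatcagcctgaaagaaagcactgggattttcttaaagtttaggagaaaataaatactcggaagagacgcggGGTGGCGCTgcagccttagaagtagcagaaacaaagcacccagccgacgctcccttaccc
PCDHB3: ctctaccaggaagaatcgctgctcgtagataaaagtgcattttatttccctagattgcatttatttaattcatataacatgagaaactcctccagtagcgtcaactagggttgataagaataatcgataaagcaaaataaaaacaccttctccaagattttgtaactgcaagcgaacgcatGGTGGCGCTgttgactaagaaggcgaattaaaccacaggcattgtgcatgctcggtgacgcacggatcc
PCDHB5: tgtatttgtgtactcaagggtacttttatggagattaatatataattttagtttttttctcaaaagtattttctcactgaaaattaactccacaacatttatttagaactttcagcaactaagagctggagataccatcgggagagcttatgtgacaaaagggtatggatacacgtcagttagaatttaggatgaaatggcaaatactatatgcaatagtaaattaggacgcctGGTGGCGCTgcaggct
The stretch was picked by reading these sequences and was then searched on both strands. It was present in 12 of 14 promoters of the beta cluster and in 144 of 35116 promoters of the same length (0.41%). The match does not show which protein binds there.

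Among growth and cell cycle genes RB1 and CDKN2A were called in opposite directions, while 6.12% of all genes were called. RB1, which holds back entry into DNA synthesis, was at 872.4, 999.7 and 820.8 in control lines and at 542.1 to 813.8 in clones (-0.49 ± 0.13, adjusted p = 0.0493). CDKN2A, which encodes an inhibitor of the kinases that inactivate RB1, was at 119.5, 99.6 and 115.4 against 134.4 to 196.3 (0.47 ± 0.12, adjusted p = 0.0468). The groups did not overlap for either gene, and both calls were lost without any 1 control line or without clone 9, 10, 14 or 15, and that of CDKN2A also without clone 24. The probe set of CDKN2A is of the type that can pick up relatives. By limma 0 of 24 DNA replication genes and 0 of 25 mitosis genes were called, with medians of -0.06 and -0.03. Of these, 4 and 2 had an unadjusted p under 0.05, against 26.1% of all genes. Within the p53 list GADD45A, a stress gene, was higher (0.80 ± 0.19) and AEN, a nuclease, was lower (-0.46 ± 0.12), with 15 of 17 not called. IGF1R was higher, with 220.6, 142.2 and 213.7 in control lines against 201.9 to 610.2 in clones and clone 9 among the control lines, and EGFR was lower, with 269.5, 310.9 and 300.5 against 171 to 247.1 (-0.45 ± 0.10, adjusted p = 0.0319). GADD45A, AEN and EGFR lost the call without any 1 control line or without clone 14 or 15, GADD45A and AEN also without clone 10 or 24 and AEN without clone 9.

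Among signalling and matrix genes AMOTL2, MMP16 and VWF were lower. AMOTL2, a junction protein and a target of the Hippo coactivators, was at 136.8, 125.1 and 173.3 in control lines and at 11.5 to 53.6 in clones (-1.69 ± 0.26, adjusted p = 0.00637). It was the 1 called gene of 11 on its list, while 6.12% of all genes were called. MMP16, a membrane matrix protease, was at 1599, 1436 and 1860 against 807.3 to 1148 (-0.80 ± 0.12, adjusted p = 0.00613). VWF, a clotting protein, was at 93.5, 49.8 and 126.2 against 11.1 to 26.9 (-1.59 ± 0.22, adjusted p = 0.00425). These 3 calls held without any 1 culture. MMP7, a secreted matrix protease, was lower, at -1.32 ± 0.31, with its highest signal in control 2 at 103. On the Wnt list of 14 genes RNF43, which removes Wnt receptors, was lower (-0.63 ± 0.17) and TCF7L2, the factor that reads Wnt signals, was higher (0.40 ± 0.10). MMP7, RNF43 and TCF7L2 lost the call without any 1 control line or clone 9, 10, 14 or 15, and RNF43 and TCF7L2 also without clone 24.

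Interferon and antigen presentation genes leaned upward, though 20 of 22 were not called. The median of their list was 0.36 against 0.03 for all genes (0.19 without control 2), with 18 of 22 differences positive, and 2 were called higher against a background of 3.64%. OAS1, a sensor of viral RNA, was at 9.4, 2.5 and 6.6 in control lines and at 12.6 to 25.5 in clones (0.57 ± 0.14, adjusted p = 0.0371). PSMB9, an immunoproteasome subunit, was at 4.8, 0.7 and 8.7 against 5.8 to 44.5, with clone 19 among the control lines (1.01 ± 0.25, adjusted p = 0.0429). Both calls were lost without any 1 control line or clone 9, 10, 14 or 15, and that of PSMB9 without clone 24. Control 2 had the lowest signal of all 10 cultures for 16 of the 22 genes. HLA-DMA, which loads peptides onto class II molecules, was at 324.4, 80.4 and 309 against 335.2 to 443.4 (0.85 ± 0.32, adjusted p = 0.124), with control 2 far below the other cultures. For metabolism, PFKP, a phosphofructokinase of glycolysis, was lower (-0.65 ± 0.16, adjusted p = 0.0443, lost without any 1 control line or clone 10, 14, 15 or 24), the 1 called gene of 23 on the glycolysis and hypoxia list; SLC2A1, a glucose transporter, was at -0.56 and was called in 8 of 23 alternative settings. By limma 0 genes were called on 6 further lists, and those at an unadjusted p under 0.05 were 1 of 18 for lipid synthesis, 3 of 24 for protein folding stress and 5 of 21 for the respiratory chain. On the last list COX6C was called in 9 of 23 alternative settings and NDUFA1 in 4, both with positive differences. Those at an unadjusted p under 0.05 were 1 of 14 for xenobiotic enzymes, 6 of 14 for the BCL2 family and 2 of 6 for drug efflux. Over all genes 6.12% were called by limma and 26.1% had an unadjusted p under 0.05.

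**Figure D3:**
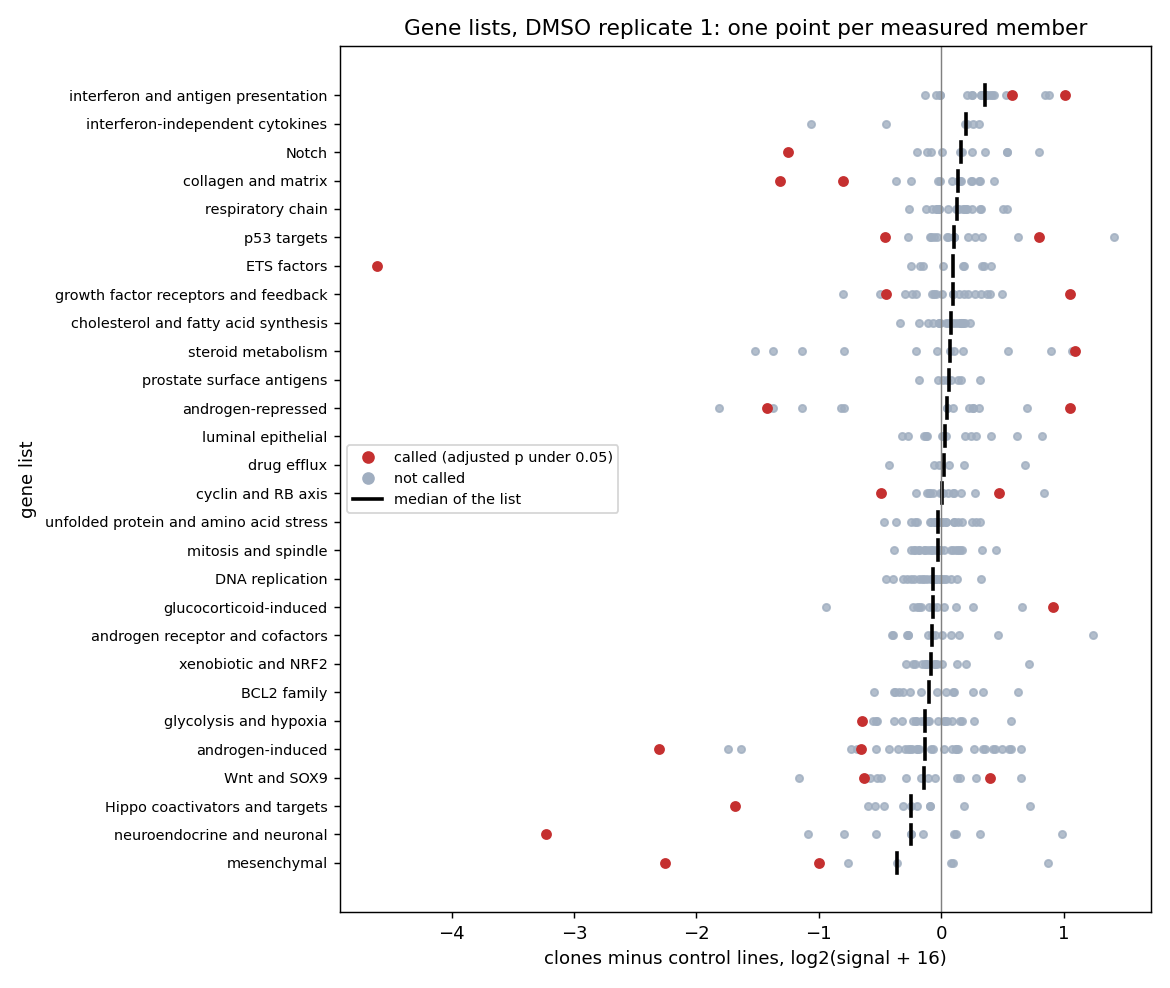
Difference between clones and control lines for every measured member of the gene lists with 5 or more measured genes; each point is a gene, red points were called, black bars are list medians, and the x axis is on the log2(signal + 16) scale. Medians lie between -0.36 for mesenchymal genes and 0.36 for interferon and antigen presentation genes, and called genes lie mostly outside the bulk of their list.

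By the SD of single genes the clones varied more among themselves than the control lines did. The median SD over genes was 0.123 among the 3 control lines and 0.186 among the 7 clones. An SD from 3 arrays tends to be lower than one from 7, and how far this sets the gap was not tested. Profiles were centred on the mean of the 10 cultures, which pushes correlations between groups below 0 and raises those within the smaller group. In these profiles the control lines correlated with each other at r = 0.43 to 0.76. Clones 9, 10, 14 and 15 correlated at 0.33 to 0.66, highest between clones 10 and 14. Clone 19 correlated with the other 6 clones at -0.36 to -0.04 and with control 1, 2 and 3 at 0.08, -0.04 and 0.15. Clone 1 reached at most 0.14 with any culture, with clone 24. Each r runs over genes of 2 arrays, and no test was made on it.

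**Figure D4:**
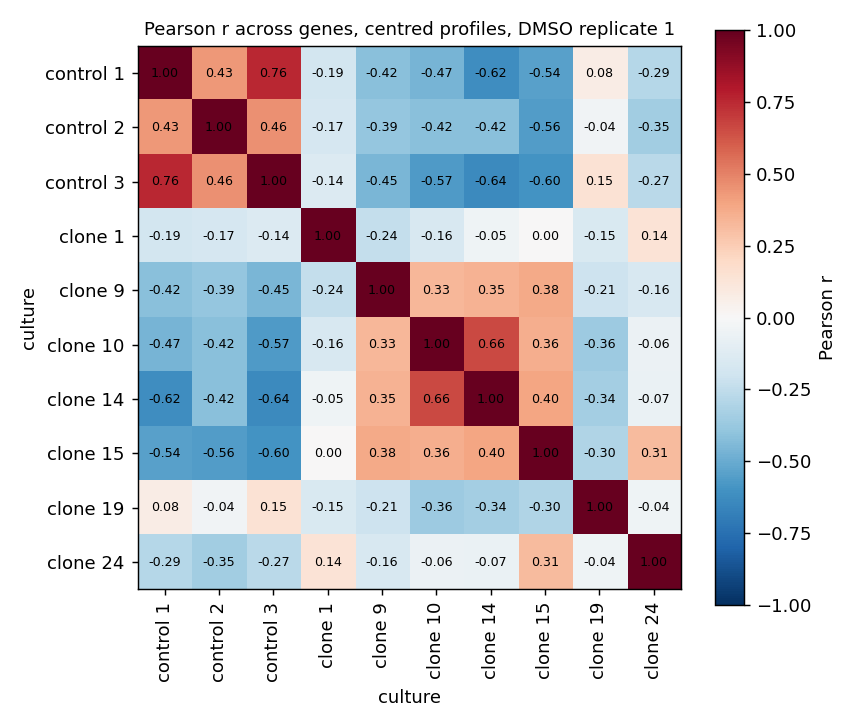
Pearson r across 11853 genes between the 10 cultures, with each gene centred on its mean over the 10 arrays. The 3 control lines form 1 warm block, clones 9, 10, 14 and 15 another, and clones 1 and 19 stand outside both.

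Single cultures also carried genes of their own. Control 2 had 27 genes more than 1 log2 unit above and 17 more than 1 below every other culture, and clone 19 had 9 and 20, so that control 2 had the most above and clone 19 the most below. CCDC85A was at 413.5 in control 2 and at most 11 elsewhere, and CDH3, P-cadherin, at 263.9 against at most 13.7. In clone 19, COXFA4L2, a mitochondrial protein gene, was at 271.3 and at most 29.2 elsewhere, while GNAI1, an inhibitory G protein subunit, was at 142.8 against at least 587.8. DEPDC1, a gene of dividing cells, was also lowest in clone 19, at 176.9 against at least 712.4.

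Each remaining clone had fewer such genes. OASL, an interferon-induced gene, was at 76.9 in clone 1 and at most 23.3 elsewhere. LRRN1, a neuronal membrane protein gene, was at 78.5 in clone 9 against at least 399, and PDE10A, a cyclic nucleotide phosphodiesterase, at 16.5 against at least 112.3. In clone 24, AQP3, a water channel, was at 46.3 against at least 376.2, and FRAS1, a basement membrane protein, was at 354.3 against at most 143.7. GCG, the glucagon gene, was highest in clone 10, at 199.3 against at most 93.1, a gap of 0.98 log2 units and so under 1. VIM was highest in clone 14, with a gap of 1.02. Control 1 was marked by CBLN2, a synaptic protein gene, at 1184 against at most 241.5, and control 3 by NR2F6, a nuclear receptor, at 1774 against at most 943.2. Clone 15 and control 3 had no gene more than 1 log2 unit beyond all other cultures. On the MDV3100 array of the same label and set, CCDC85A in control 2 was again high at 786.3, COXFA4L2 in clone 19 at 267.1 and AQP3 in clone 24 again low at 36. On the second DMSO array of the same label these genes were at 2.1, 2.3 and 1058.

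The contrast ran mostly in the same direction on the MDV3100 arrays of the first set and mostly in the opposite one on the DMSO arrays of the second. On the MDV3100 arrays, 1068 genes (9.01%) were called between clones and control lines. Of the 725 genes, 709 (97.8%) had the same direction there, against 76.6% of all genes, and 390 (53.8%, against 8.90% of all genes) were called the same way and 0 the opposite way. These arrays come from cultures with the same labels and share no array with the DMSO set. On the second DMSO set, 1221 genes (10.3%) were called. There, 163 of the 725 genes (22.5%) had the same direction and 562 (77.5%) the opposite, against 40.75% and 59.25% of all genes. Called the same way were 8 of the 725 (1.10%, against 3.70% of all genes), and called the opposite way 71 (9.79%, against 6.6%). The difference of the contrast between the sets, tested on 1 value per line, was called for 2149 genes (18.1%), among them 492 of the 725 and all 24 of the genes drawn with the largest changes. Those 24 were picked for their first-set values, which also enter this difference, so its sign is partly fixed by the choice. ETV1, at -4.61 in the first set, was at 4.12 in the second, and H2AJ at -4.34 and 2.92. That number of calls rested on a few lines: it was 248 without control 2, 1 without control 3, 1243 without control 1, 1273, 1201 and 1357 without clone 14, 15 and 24, and 3557 without clone 1.

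**Figure D5:**
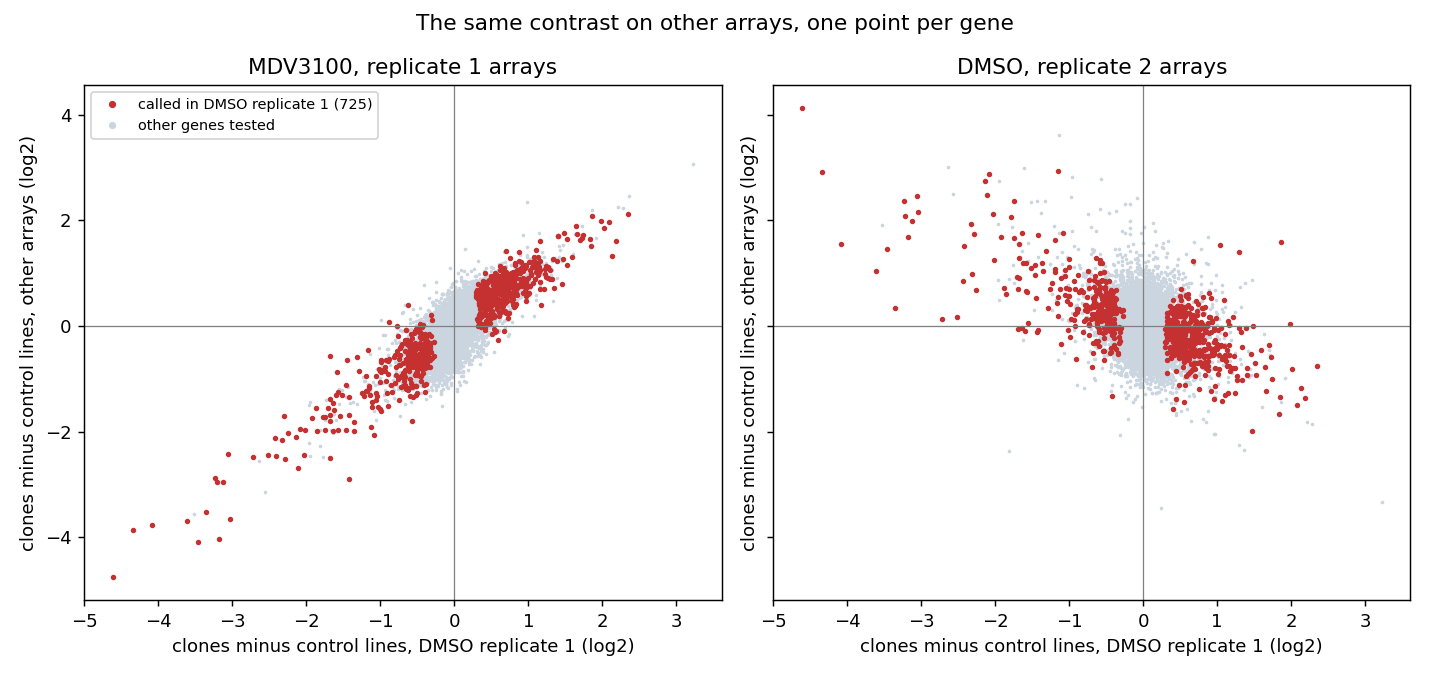
Difference between clones and control lines for each of 11853 genes on the DMSO arrays of the first set (x axis) against the MDV3100 arrays of the first set (left) and the DMSO arrays of the second set (right), all on the log2(signal + 16) scale. The 725 called genes, in red, run along the diagonal on the left and mostly lie in opposite quadrants on the right.

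Genes called in the same direction in both DMSO sets numbered 8, a share of the 725 below that of all genes, and they were chosen after their values were seen. HGD was higher by 1.03 in the first set and 1.53 in the second. BDH2, a dehydrogenase of ketone body metabolism, was higher by 0.92 and 0.53, and MRPL14, a mitochondrial ribosomal protein, by 0.61 and 0.54. PFDN4, a subunit of the prefoldin chaperone, was higher by 0.51 and 0.69, and SARNP, a factor of mRNA export, by 0.51 and 0.49. GLIS2, a zinc finger repressor, was lower, at -0.90 and -0.62, as were RNFT2 at -0.53 and -0.65 and KLHL8 at -0.41 and -1.33. In the first set all 8 lost their call without at least 2 of the control lines, with adjusted p up to 0.186 for BDH2 and 0.0637 for GLIS2. HGD, BDH2, MRPL14, PFDN4 and RNFT2 also lost it without clone 10, 14 or 15.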

How the data were processed

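RNA from LNCaP cultures was amplified, biotin-labelled and hybridised to Affymetrix arrays. The authors deposited 1 linear intensity value for each probe set. MAS5 produced it, per the submitters' processing notes, and no version is given in the sources used here. Every array's mean after trimming 2% at each end was 150, so values were not normalized again.

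Values were converted to log2(value + 16). Of 54675 probe sets, 27338 whose mean log2 over all 40 arrays reached the median (4.815, a signal of 12.1) were kept. The platform table gave 1 gene for 41097 probe sets, several for 1801 and none for 11777; 54 gene identifiers had no current match. The brightest probe set stood for each gene, 11853 in all. Groups came from the labels. Clones and control lines were compared with limma 3.58.1 in R 4.3.3 (lmFit, eBayes, Benjamini-Hochberg), with 10 arrays and 8 residual degrees of freedom, and the scripts were tested on simulated data. The number of arrays limits the precision.

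The genes named were the 12 largest differences per direction among called genes whose groups do not overlap, a short fixed set, up to 3 members per list and up to 2 genes per side for each culture with a signal of at least 50; AEN, EGFR, TCF7L2, ST6GALNAC1, OAS1, AKR1C3 and the other genes outside it were named after their values were seen. Members of that set without values above are not reported here. The comparison and the 34 lists (458 of 658 entries measured) were chosen with earlier results of these data known. Lists are given by counts and medians without a test. Alternatives changed the pseudocount, filter, scaling, probe set choice, variance model and lines included.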

Additional observations from a re-analysis of the deposited data

Results flagged for a closer look

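Among 35 genes examined, 7 had a clone whose gap to the nearest other clone was too large a share of the range of the 7 clones by Dixon's 95% critical value; chance alone gives about 1 in 20. Clone 19 stood apart for ETV1 at 871.2, NAB1 at 169.6, FOLH1 at 841.4 and LXN at 10.3. Clone 1 stood apart for UGT2B17 at 23.3 and UGT2B15 at 74.2, and clone 9 for RIPOR2 at 8.3.

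For all 24 genes with the largest differences, the contrast of clones against control lines differed between the DMSO arrays of the second and the first set by limma's test on 1 difference per line. The second set minus the first was positive for the 12 genes lower in clones. It was 8.73 for ETV1, 7.26 for H2AJ, 5.65 for RIPOR2, 4.66 for KLHL1, 4.92 for EPHA7 and 3.69 for SLITRK3. It was 5.59 for SYT4, 5.29 for ERVMER34-1, 4.87 for MAGEA4, 5.11 for DSC3, 5.52 for PAGE1 and 5.19 for NLGN4X. The difference was negative for the 12 genes higher in clones, at -3.10 for ADAMTS3, -3.59 for TPBG, -2.84 for NECTIN3, -1.95 for CRYAB, -3.19 for SNAP91 and -3.49 for NMNAT2. It was -2.75 for RADX, -2.32 for NAB1, -2.07 for LGALS3BP, -2.90 for PDZD4, -2.42 for PTGS1 and -2.04 for FARS2-AS1. These genes were picked for their first-set differences, which are subtracted here, so the sign is partly fixed by the choice. What separates the sets was not tested.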

How the results depend on the processing

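The 725 calls became 3873 (2302 higher, 1571 lower) when arrays were weighted by quality, and 2276 (1462 higher, 814 lower) without clones 1 and 19, an alternative chosen after seeing the data. Leaving out 1 line gave 101 to 1453 calls, 51 to 961 higher and 49 to 511 lower. A fit on all 20 arrays of the first set, with line as a random block, gave 187 lower. The other settings, among them the pseudocount, the filters, quantile normalization and the variance model, stayed within 1.5 times the total. For the difference between sets, leaving out 1 line gave 1 to 3557 calls, and leaving out control 2, control 3 and clone 1, also chosen after seeing the data, gave 37. That last fit has 1 control line, which is assumed to vary like the 6 clones left, and nothing is read from it. Among the 24 genes with the largest differences, the direction held in 536 of 536 refits and the call in 488. The HOXB13 difference turned to 0.053 with the mean of all its probe sets (adjusted p = 0.788). Of 30 further probe sets for 14 of the named genes, 29 had the same direction. No paired analysis was possible because each line has 1 array in this comparison and no number pairs a clone with a control line.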
